A study of Mus musculus with 3 samples.

Results

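The comparison described here sets αTC1-6 cells that carried the kinase mutant NIK(KA) against cells that carried β-galactosidase (β-Gal), gene by gene, for the genes that these cells express well. A gene entered when its mean over the 3 libraries of the study was at least 5 FPKM (reads counted per gene, divided by gene length and by the total of the library), and 9779 of 52948 gene IDs did. Map3k14, the gene of NIK itself, was left out of every count. The measure is the difference in log2(FPKM + 1), NIK(KA) minus β-Gal, which makes differences of low genes look smaller. A gene is called higher or lower when the difference is at least 0.32 in size, a fold of 5 to 4, or at a larger fold where that is stated. Each group had 1 library, so replicate spread is unknown and no difference was tested. Fold values in the text are ratios of reads, each divided by the total of its library, with an exact 95% interval in brackets for counting error only.

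The αTC1-6 line comes from a mouse tumour of glucagon-producing pancreatic α cells. The control culture received an adenovirus for β-Gal, a bacterial enzyme with no known signalling role in mammalian cells, and a further culture received an adenovirus for NIK. All cultures were harvested after 16 h of infection. The shared time does not show that virus dose or batch was equal between the groups. Total RNA was sequenced, and the counted reads came to 18629668 with β-Gal, 15523580 with NIK and 16652922 with NIK(KA). The labels do not say which residue differs in NIK(KA), or from which species the viral coding sequences come. The name stands in the literature for a mutant of the catalytic site.

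NIK, the NF-κB-inducing kinase, drives the non-canonical NF-κB pathway. It activates IKKα, which phosphorylates the p100 protein made from Nfkb2. Processing of p100 to p52 then lets dimers of p52 and RelB enter the nucleus, where they act on genes of lymphoid organ development, chemokines and antigen presentation. A kinase-site mutant keeps the protein but is used as a control without catalytic activity. Map3k14 (chromosome 11, 103219762 to 103267472 on GRCm38) had 216 reads with β-Gal, 283 with NIK and 435 with NIK(KA). In FPKM it was at 5.35, 8.42 and 12.1, in the same order. It was 2.25-fold above β-Gal in NIK(KA) (1.91 to 2.66), in the direction of the label. How much of the viral coding sequence was counted to this mouse gene is not known, so the fold does not measure the viral transcript.

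The cells kept the markers of their type. Gcg, the glucagon gene, took 1.01% of the reads in β-Gal (exact binomial interval 1.01 to 1.02) and 0.852% in NIK(KA) (0.848 to 0.857), and the α-cell genes Ttr, Irx2 and Pcsk2 were detected in every library. Signals of other tissues differed between the libraries. Smoc2, which encodes a secreted matrix protein, had 74005 reads with β-Gal, 7 with NIK and 4 with NIK(KA). The 17 heart muscle markers summed to 47.9 FPKM with β-Gal, 7.43 with NIK and 10.6 with NIK(KA), with 1, 5 and 2 of them at 0. Myl2, a ventricular myosin light chain, had 89 reads in β-Gal and 0 in the other libraries. The 21 liver markers summed to 1100 FPKM with β-Gal, 623 with NIK and 1010 with NIK(KA), most of it from Ttr and Rbp4, which islet cells also make. Of these, 10, 12 and 1 were at 0, and Alb, the albumin gene, had 18, 6 and 75 reads. The 30 markers of leukocytes, stromal, endothelial, duct and acinar cells summed to 16.2, 20.5 and 15.4 FPKM, with 10, 11 and 10 at 0. In bulk RNA, fewer cells of a type and less RNA per cell cannot be told apart. Where the reads of other tissues came from was not tested. Leaving out Smoc2 and the heart and liver markers, an alternative chosen after the data were seen, took 1 gene from each of the counts at the limit of 0.32 below.

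Most well-expressed genes lay close to the control. The median difference between NIK(KA) and β-Gal was 0.01 on the log2 scale, the quartiles were -0.09 and 0.12, and 95% of the genes lay between -0.31 and 0.36. In all, 9186 genes, 93.9%, stayed within 0.32 of the control. For NIK against β-Gal, which shares the control library, the same range was -0.74 to 1.37, with 70.7% of the genes within 0.32. NIK against NIK(KA) gave -0.70 to 1.34 and 71.5%. Genes of many reads lay in a narrower band than genes near the limit of the filter, as the plot of differences by level shows.

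**Figure D1:**
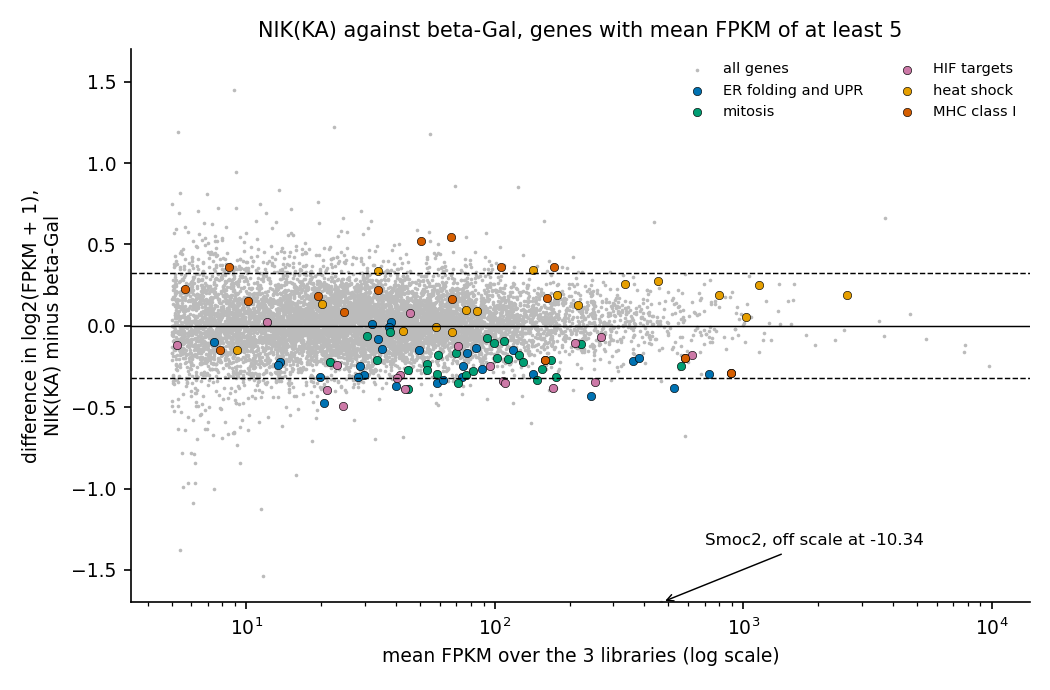
Difference in log2(FPKM + 1), NIK(KA) minus β-Gal, against mean FPKM over the 3 libraries (log axis), 1 point per gene and 1 library per group. Dashed lines mark the limit of 0.32; coloured points are members of 5 gene lists, of which mitosis and ER folding genes lie mostly below 0 and heat shock genes mostly above. Smoc2, at -10.34, is off the scale.

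At the limit of 0.32, 366 genes were higher in NIK(KA) (3.74% of the genes compared) and 227 were lower (2.32%). The counting interval excluded 1 in 341 and 196 of them. Higher genes were 61.7% of these calls, and 43.0% with upper-quartile scaling (257 higher and 340 lower). At 1.5-fold, 36 were higher (0.368%) and 38 lower (0.389%). At 2-fold, 4 were higher (0.0409%) and 6 lower (0.0614%). Protein-coding genes made up 330 and 155 of the calls at 0.32, 22 and 10 at 1.5-fold, and 1 and 1 at 2-fold. The lower coding gene past 2-fold was Smoc2. The higher one was not among the genes with at least 100 reads over both libraries and is not named. Mmp9, a matrix metalloproteinase that passed the filter through the NIK library, had 0 reads with β-Gal and 15 with NIK(KA). Its difference was 0.76, which is short of 2-fold. Just inside the filter were Ttc30a1, at 5.14, 4.95 and 4.92 FPKM in β-Gal, NIK and NIK(KA), and Psg16, at 4.46, 6.23 and 4.32. Just outside were Ebf1, at 4.23, 7.05 and 3.71, and Atl1, at 5.20, 5.08 and 4.70.

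The base composition of the transcripts moved with the difference. With the genes in 5 groups of equal size by GC content, the median difference between NIK(KA) and β-Gal was -0.07 in the lowest group (29.2% to 45.1% GC) and 0.14 in the highest (56.0% to 75.5%). The groups between them had -0.04, 0.01 and 0.05. For NIK minus β-Gal the medians ran from -0.04 to 0.02, and for NIK minus NIK(KA) from 0.02 to -0.12. The 366 higher genes had a median GC content of 57.9% and the 227 lower genes 48.0%, against 50.6% over all genes. With the difference centred within 20 bins of GC content, an alternative chosen after the data were seen, 169 genes were higher and 243 lower at 0.32. What part GC content has in single genes was not tested, and the GC-centred median therefore stands beside each list median below. Folds and calls of single genes are given without centring, and some calls depend on it. After centring, Nfkbib was at 0.15, Hcn2 at 0.16, Furin at 0.25 and Pcsk1n at 0.31, all under the limit. Nfkb2 at 0.42, B2m at 0.62 and Vgf at 0.43 stayed past it.

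**Figure D2:**
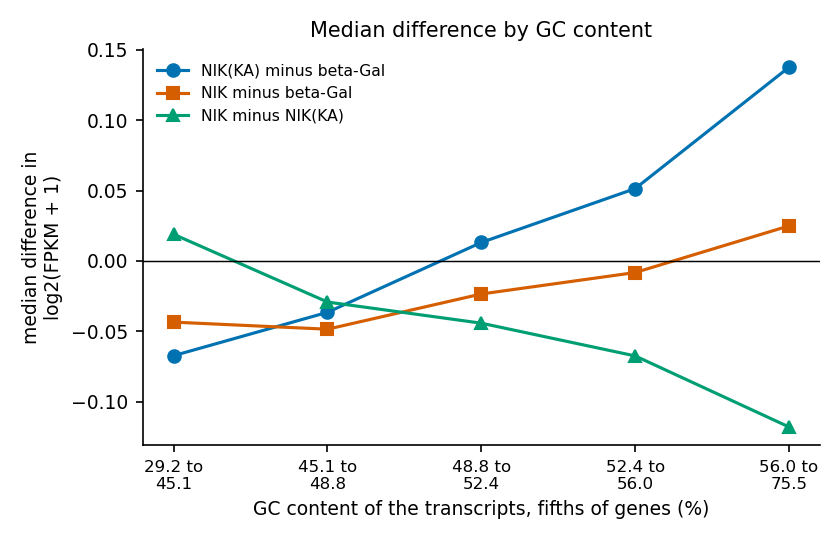
Median difference in log2(FPKM + 1) for the 3 comparisons between libraries, in 5 groups of genes of equal size ordered by the GC content of their transcripts (percent). The NIK(KA) minus β-Gal line climbs from -0.07 to 0.14, and the NIK minus β-Gal line stays between -0.05 and 0.02.

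Lists of genes with a shared role showed where small differences ran the same way. The strongest medians below 0 were those of targets of the hypoxia-inducible factor (HIF), of chaperones of the endoplasmic reticulum (ER) and of mitosis. Medians above 0 were found for MHC class I presentation, heat shock, NF-κB, cytosolic ribosomal proteins and ion channels. After GC centring these were 0.16, 0.15, 0.02, 0.03 and -0.01, in that order, so the last 3 lay close to 0. Over all genes, 46.3% lay below 0, and the counting interval lay wholly below 1 in 16.7% and wholly above 1 in 22.5%. These values are the background for each list. Whether a counting interval excludes 1 also depends on the number of reads, so for lists of highly expressed genes the all-gene shares are not a like background.

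**Figure D3:**
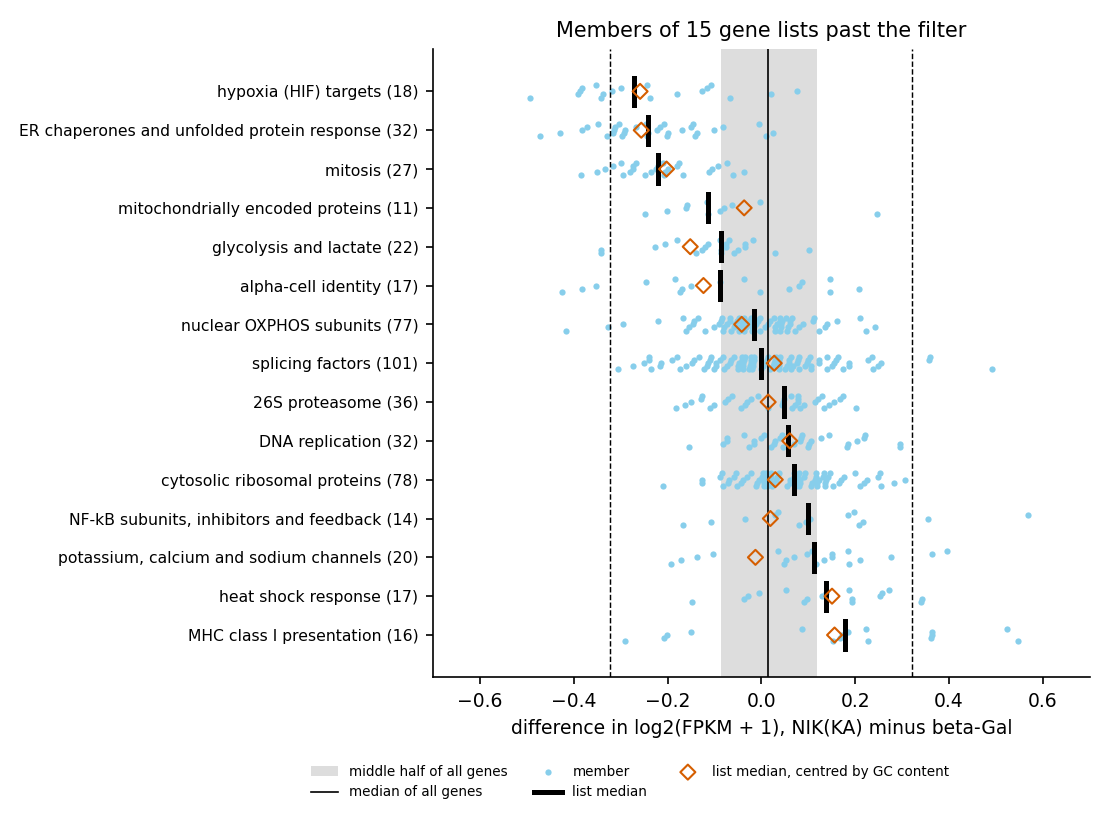
Difference in log2(FPKM + 1), NIK(KA) minus β-Gal, for the members of 15 gene lists past the filter (points, with the number of members after each name), the list median (bar) and the median after centring by GC content (diamond). The grey band runs between the quartiles of all genes, -0.09 to 0.12, and the dashed lines mark the limit of 0.32; the medians of the HIF, ER and mitosis lists lie left of the band.

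Chaperones and folding enzymes of the ER mostly lay below the control in NIK(KA), a minority of them past 0.32. In secretory cells such as α cells these proteins fold the peptide hormones and receptors that pass through the ER, and the sensors Ire1, Perk and Atf6 raise their genes when unfolded protein builds up. All 32 listed genes passed the filter and 30 lay below 0, with a median of -0.24 (GC-centred -0.26). The counting interval lay below 1 in 27 of them and above 1 in 0. At 0.32 6 were lower and 0 higher. The median was -0.39 for NIK minus β-Gal, which shares the control, and -0.16 for NIK minus NIK(KA).

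A shared promoter element links many of these genes, and 3 of the promoters are shown because they belong to the chaperone genes Hspa5 and Hsp90b1 and to Derl3, the member furthest below 0. The ER stress response element, CCAAT, then 9 bases of any kind, then CCACG, on either strand, is bound by NF-Y together with Atf6. It was searched in 300 bases from 250 before to 50 after the start, taken from RefSeq on GRCm38.p6, with 1 promoter per gene. It was present in 35 of 27025 promoters (0.130%), in 13 of 7663 promoters of genes past the filter (0.170%) and in 9 of the 26 ER promoters at hand (34.6%). The 9 genes were Calr, Canx, Creld2, Derl3, Dnajc3, Hsp90b1, Hspa5, Pdia6 and Syvn1. Textbook targets were put on this list, so the share describes the list. Capitals mark the matches in Hspa5 (chr2:34771840-34772139, plus strand), Hsp90b1 (chr10:86705395-86705694, minus strand) and Derl3 (chr10:75893148-75893447, plus strand).
Hspa5: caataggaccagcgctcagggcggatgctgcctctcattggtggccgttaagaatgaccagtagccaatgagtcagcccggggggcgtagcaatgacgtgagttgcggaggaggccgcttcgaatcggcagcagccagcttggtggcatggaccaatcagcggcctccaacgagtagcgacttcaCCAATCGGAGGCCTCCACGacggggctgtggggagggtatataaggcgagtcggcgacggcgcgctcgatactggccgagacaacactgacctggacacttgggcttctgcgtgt
Hsp90b1: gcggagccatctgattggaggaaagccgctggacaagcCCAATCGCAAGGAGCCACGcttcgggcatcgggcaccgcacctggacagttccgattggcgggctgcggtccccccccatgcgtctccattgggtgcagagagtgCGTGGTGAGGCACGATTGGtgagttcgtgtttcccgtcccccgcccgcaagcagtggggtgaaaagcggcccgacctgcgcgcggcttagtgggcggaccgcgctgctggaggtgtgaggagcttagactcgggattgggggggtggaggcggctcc
Derl3: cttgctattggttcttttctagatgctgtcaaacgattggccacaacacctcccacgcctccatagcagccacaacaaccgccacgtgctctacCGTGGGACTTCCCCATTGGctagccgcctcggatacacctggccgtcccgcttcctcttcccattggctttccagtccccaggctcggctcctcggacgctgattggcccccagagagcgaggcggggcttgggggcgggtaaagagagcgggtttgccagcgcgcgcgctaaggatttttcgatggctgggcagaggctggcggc

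Hspa5 encodes BiP, the Hsp70 of the ER lumen. It was at 844 FPKM with β-Gal, 647 with NIK and 686 with NIK(KA), 1.23-fold below β-Gal in NIK(KA) (1.21 to 1.26). The control was thus the highest library, and the NIK and NIK(KA) libraries lay close together. Hsp90b1, the gene of the ER Hsp90 Grp94, had 633, 454 and 485 FPKM and was 1.30-fold lower (1.27 to 1.33). Manf, a secreted factor induced by ER stress, had 306, 198 and 227 FPKM and was 1.35-fold lower (1.29 to 1.41). Derl3, which takes part in ER-associated degradation, had 26.5, 16.3 and 18.8 FPKM and was 1.41-fold lower (1.19 to 1.66). Dnajb9, a cochaperone of BiP, had 46.8, 37.4 and 36.0 FPKM. Each of these genes was highest in β-Gal. Xbp1, the transcription factor activated by Ire1, was also highest there, with 78.6, 43.8 and 62.3 FPKM, and Selenos, a selenoprotein of the degradation complex, had 71.2, 48.9 and 55.7. The sensor gene Atf6 had no such pattern, with 41.5 FPKM in β-Gal and 42.3 in NIK(KA). Calr, the lectin chaperone calreticulin, was at 959, 928 and 784 FPKM, so NIK lay nearer to the control there. Syvn1, which carries the element and encodes the ubiquitin ligase Hrd1, was at 38.1, 27.4 and 35.9 FPKM.

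The channel through which proteins enter the ER had a median nearer to 0. Of 23 translocon and signal peptidase genes 13 lay below 0, with a median of -0.12 (GC-centred -0.08). Only Sec61b, a subunit of the channel, was past 0.32, at 90.3, 78.1 and 69.9 FPKM in β-Gal, NIK and NIK(KA). The amino acid response driven by Atf4 had a median slightly above 0. Of its 30 genes past the filter 9 lay below 0, with a median of 0.07 that was 0.01 after GC centring, and 2 were past 0.32 higher. These were Cebpb, a leucine-zipper factor, at 19.2, 23.6 and 29.3 FPKM, and Sesn2, a leucine sensor upstream of mTORC1, at 44.3, 61.5 and 55.8. The median of the ER folding genes thus lay below 0, while that of the Atf4 response was close to the all-gene median after GC centring.

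Genes of mitosis lay below the control in NIK(KA), mostly by less than 0.32. The 27 genes had a median of -0.22 (GC-centred -0.20), and 27 of 27 lay below 0. The counting interval lay below 1 in 24, and 3 genes were past 0.32. Median differences were -0.54 for NIK minus β-Gal and -0.30 for NIK minus NIK(KA). Hmmr, a spindle and hyaluronan-binding protein gene, had 57.7 FPKM with β-Gal, 32.3 with NIK and 43.9 with NIK(KA), 1.31-fold lower than in the control (1.22 to 1.41). Prc1, which bundles microtubules of the central spindle, had 88.9, 53.7 and 69.6 FPKM and was 1.28-fold lower (1.21 to 1.35). Cenpa, the histone H3 of the centromere, had 181, 117 and 144 FPKM and was 1.26-fold lower (1.20 to 1.32). For these genes NIK(KA) lay between NIK and the control. Cdk1, the kinase that starts mitosis, had 206, 160 and 165 FPKM, with NIK(KA) close to NIK. Mki67, the proliferation antigen, was at 187, 158 and 162. Kif23, a kinesin of the midbody, was the nearest to 0, at 36.9, 40.8 and 36.0 FPKM.

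Genes of DNA replication did not share that direction. Of 32 genes 9 lay below 0, with a median of 0.06 (GC-centred 0.06), and the counting interval lay above 1 in 14 and below 1 in 1. None was past 0.32 in either direction. Mcm2, a subunit of the replicative helicase, had 377, 418 and 438 FPKM in β-Gal, NIK and NIK(KA) and was 1.16-fold higher in NIK(KA) (1.13 to 1.20). Pcna, the sliding clamp of the polymerases, had 606, 649 and 642 FPKM. Rrm1, a subunit of ribonucleotide reductase, was the lowest member, at 246, 242 and 221. Mcm2 and Pcna were thus lowest in β-Gal.

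The mitotic genes are known for a promoter element, TTTGAA, the cell cycle genes homology region, which the MuvB complexes bind. On either strand it was present in 17 of 23 mitosis promoters at hand, in 11.3% of the promoters of genes past the filter and in 18.1% of all promoters. The promoters of Hmmr (chr11:40733388-40733687, minus strand) and Cdk1 (chr10:69352863-69353162, minus strand) are shown as a member past 0.32 and the central kinase, with matches in capitals.
Hmmr: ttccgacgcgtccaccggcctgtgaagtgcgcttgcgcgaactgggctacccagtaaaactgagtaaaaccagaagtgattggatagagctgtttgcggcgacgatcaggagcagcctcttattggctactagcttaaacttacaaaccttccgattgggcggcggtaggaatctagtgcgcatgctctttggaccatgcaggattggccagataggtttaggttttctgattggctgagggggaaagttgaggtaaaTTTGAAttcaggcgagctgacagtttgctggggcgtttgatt
Cdk1: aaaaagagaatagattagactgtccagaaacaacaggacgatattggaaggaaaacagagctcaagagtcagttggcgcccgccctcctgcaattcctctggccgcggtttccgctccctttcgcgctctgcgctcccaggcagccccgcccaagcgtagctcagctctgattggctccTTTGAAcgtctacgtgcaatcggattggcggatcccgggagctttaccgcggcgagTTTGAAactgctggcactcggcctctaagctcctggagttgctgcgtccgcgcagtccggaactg

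Targets of HIF had the lowest median of the lists with 10 or more members. HIF is a transcription factor that is stabilised when oxygen is short, and it raises genes for glycolysis, mitophagy, collagen hydroxylation and blood vessel growth. Of 23 listed genes 18 passed the filter, 16 of these lay below 0, and the median was -0.27 (GC-centred -0.26). At 0.32 7 were lower and 0 higher. The counting interval lay below 1 in 15. Medians were -0.46 for NIK minus β-Gal and -0.20 for NIK minus NIK(KA).

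Ndrg1, a gene of hypoxia and differentiation, had 31.8 FPKM with β-Gal, 19.4 with NIK and 22.3 with NIK(KA), 1.43-fold lower than in the control (1.252 to 1.62). The collagen-modifying enzymes Plod2, at 26.4, 17.2 and 19.8 FPKM, and P4ha2, at 55.9, 32.2 and 42.5, were lower as well. Higd1a, a mitochondrial protein of the hypoxia response, had 215, 132 and 165 FPKM and was 1.31-fold lower (1.24 to 1.37). Bnip3, a mitophagy receptor, had 129, 92.1 and 102 FPKM. Each of these genes was highest in β-Gal and lowest in NIK. Ldha, lactate dehydrogenase A, had 323, 183 and 255 FPKM and was 1.27-fold lower (1.22 to 1.32). Its promoter (chr7:46845554-46845853, plus strand) is shown for the core of the HIF site, ACGTG on either strand, in capitals, of which 5 matches, some overlapping, were found. That core was present in 9 of the 14 HIF promoters at hand, in 27.7% of the promoters of genes past the filter and in 19.7% of all promoters. The ER list had it in 11 of 26 promoters, mitosis in 8 of 23, MHC class I in 4 of 14 and NF-κB in 2 of 11. The HIF list was made of known targets, so its share describes the list.
Ldha: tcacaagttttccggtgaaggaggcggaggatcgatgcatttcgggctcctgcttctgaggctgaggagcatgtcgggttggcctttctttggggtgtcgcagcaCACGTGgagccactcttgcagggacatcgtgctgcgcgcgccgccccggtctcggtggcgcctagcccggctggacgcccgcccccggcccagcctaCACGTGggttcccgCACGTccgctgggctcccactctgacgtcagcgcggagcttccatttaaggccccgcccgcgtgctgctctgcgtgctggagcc

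Not every HIF target reached the limit for a lower call. Of those named next, Egln1 lay above the control in NIK(KA), and the others lay below it by less than the limit. Vegfa, the vascular growth factor, was at 292, 231 and 278 FPKM in β-Gal, NIK and NIK(KA), a difference of -0.07 from the control. Egln1, an oxygen sensor that marks HIF for degradation, was at 45.6, 42.7 and 48.1, above the control. Bhlhe40, a repressor with a clock function, was at 92.7, 116 and 78.1, so it lay below the control in NIK(KA) and above it in NIK. Adm, the gene of adrenomedullin, was at 2.37, 11.3 and 2.11, and passed the filter through NIK.

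Glycolysis genes, some of which are also HIF targets, had a median nearer to 0. Of 22 past the filter 20 lay below 0, with a median of -0.09 (GC-centred -0.15), and 2 were past 0.32, Ldha and the neuronal enolase Eno2. Eno2 was at 356 FPKM with β-Gal, 762 with NIK and 281 with NIK(KA), so the mutant and the active kinase lay on opposite sides of the control. Gapdh, a glycolytic enzyme often used as a reference, was at 3493 FPKM in both β-Gal and NIK and at 3563 in NIK(KA). The 77 nuclear subunits of oxidative phosphorylation had a median of -0.02 (GC-centred -0.04), with 46 below 0 and 2 past 0.32 lower. The 11 mitochondrially encoded genes past the filter had a median of -0.11, with 10 below 0 and 0 past 0.32. They are poor in GC, with a median of 36.0%, and the GC-centred median was -0.04.

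**Figure D4:**
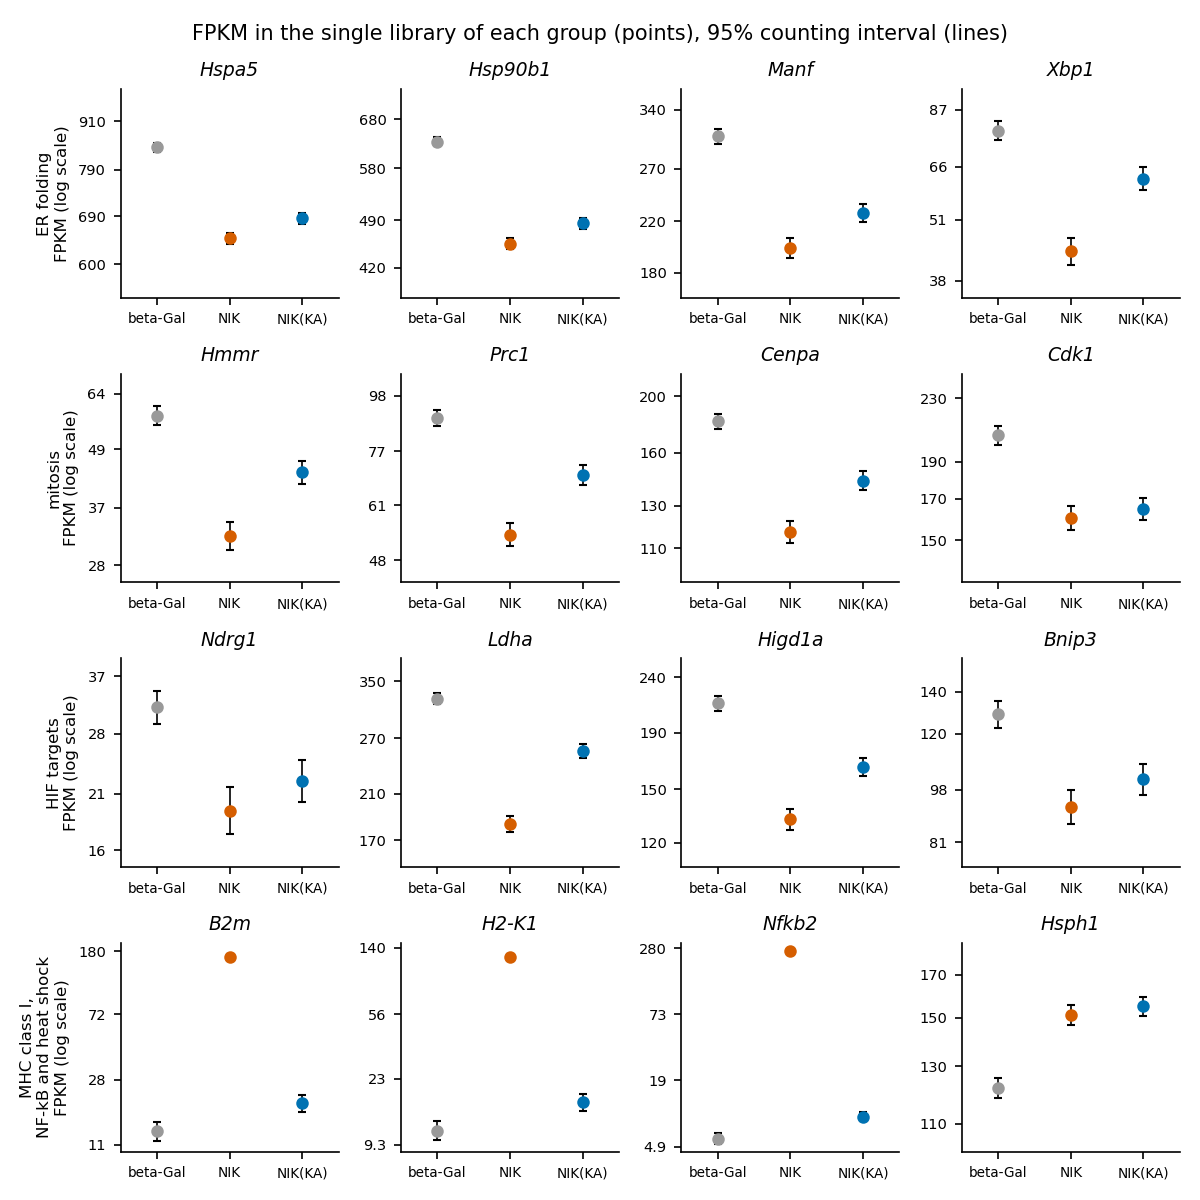
FPKM (log axis, range set per gene) of 16 genes in the β-Gal, NIK and NIK(KA) libraries; points are single libraries and lines 95% counting intervals. In the first 3 rows (ER folding, mitosis, HIF targets) β-Gal is the highest library; in B2m, H2-K1 and Nfkb2 NIK(KA) lies slightly above β-Gal and far below NIK.

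Genes of MHC class I presentation had a median above 0 in NIK(KA), with values on both sides of the control. These proteins cut, carry and load peptides onto the class I chains shown to cytotoxic T cells. Of 21 genes 16 passed the filter, 4 of them only with the NIK library counted in the mean, which bears on the NIK medians. The median was 0.18 (GC-centred 0.16), 5 were past 0.32 higher and 0 lower, and the counting interval lay above 1 in 5 and below 1 in 3. Medians were 2.52 for NIK minus β-Gal and 2.28 for NIK minus NIK(KA).

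B2m, the light chain of every class I molecule, had 214 reads with β-Gal, 2216 with NIK and 286 with NIK(KA). It was 1.5-fold above β-Gal in NIK(KA) (1.248 to 1.79). The class I heavy chain H2-K1 was at 11.3, 123 and 16.6 FPKM, 1.48-fold higher (1.24 to 1.76). H2-D1, a further heavy chain, was at 78.8, 339 and 102 FPKM, 1.29-fold higher (1.20 to 1.39). Reads of these H2 genes are uncertain, since near-identical copies could share them. Tapbp, the tapasin gene, was at 24.9, 259 and 32.2 FPKM, and Tap1, a subunit of the peptide transporter, at 2.39, 19.7 and 3.35. In all of these NIK(KA) lay above the control and far below NIK. The 4 members below 0 were Calr, Canx and Pdia3, which are also ER chaperones, and the immunoproteasome subunit Psmb9, at 2.03, 19.7 and 1.73 FPKM.

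Among NF-κB subunits, inhibitors and feedback genes, 14 of 14 passed the filter, 6 of them only with the NIK library counted in the mean, with a median of 0.10 that was 0.02 after GC centring. Only 2 were past 0.32, both higher, beside 3.74% of all genes called higher. The counting interval lay above 1 in 3 of the 14, near the all-gene share of 22.5%, and below 1 in 0. After GC centring Nfkb2 stayed past 0.32, at 0.42, and Nfkbib did not, at 0.15. For NIK minus β-Gal the median was 1.58 and for NIK minus NIK(KA) 1.43. Nfkb2 (chromosome 19, 46304320 to 46312385) had 338 reads with β-Gal, 12688 with NIK and 473 with NIK(KA). At 5.80, 261 and 9.07 FPKM, it was 1.57-fold above β-Gal in NIK(KA) (1.36 to 1.81). Nfkbib, the gene of IκBβ, was at 22.1, 41.1 and 28.5 FPKM, 1.29-fold higher (1.15 to 1.45). Nfkb1, the p105 precursor of p50, was at 15.5, 46.2 and 18.0, 1.16-fold higher (1.05 to 1.28). These were the members whose interval excluded 1. The partner subunit Relb was at 3.82, 112 and 4.57 FPKM, a ratio of 1.20 (0.947 to 1.51). The inhibitor Nfkbia was at 12.6, 373 and 13.5, a ratio of 1.07 (0.901 to 1.28), and Tnfaip3, the A20 gene, at 1.35, 18.0 and 1.30. For those genes a difference from the control was not detectable at this depth.

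A κB element in its short form, GGGA, then 4 bases of any kind, then CC, was searched on either strand. It was present in 8 of 11 NF-κB promoters at hand and in 5 of 14 MHC class I promoters. The mitosis list had it in 10 of 23 promoters, the HIF list in 4 of 14 and the ER list in 5 of 26. Among promoters of genes past the filter it was present in 26.2%, and among all promoters in 20.5%. Of the MHC class I genes with the element, Calr lay below 0 in NIK(KA). The promoters of Nfkb2 (chr19:46304487-46304786, plus strand) and B2m (chr2:122147437-122147736, plus strand) are shown as the members with the largest difference of their lists, with matches, which overlap on both strands in B2m, in capitals.
Nfkb2: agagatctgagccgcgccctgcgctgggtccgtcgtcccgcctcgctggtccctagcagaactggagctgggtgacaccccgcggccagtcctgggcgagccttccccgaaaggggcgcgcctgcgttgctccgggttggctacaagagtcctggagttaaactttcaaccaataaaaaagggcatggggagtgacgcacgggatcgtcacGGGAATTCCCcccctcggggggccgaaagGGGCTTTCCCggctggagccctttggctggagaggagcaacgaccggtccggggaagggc
B2m: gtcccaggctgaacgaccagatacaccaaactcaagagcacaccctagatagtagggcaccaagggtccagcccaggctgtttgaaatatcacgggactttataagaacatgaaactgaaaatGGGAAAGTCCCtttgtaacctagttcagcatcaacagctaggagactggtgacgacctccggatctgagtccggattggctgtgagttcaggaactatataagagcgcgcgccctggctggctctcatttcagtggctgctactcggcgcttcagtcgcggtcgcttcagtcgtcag

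Of the chemokines, cytokines and their receptors 17 passed the filter, 9 of them only with the NIK library counted in the mean. Against β-Gal, 7 lay below 0 and 7 above 0 in NIK(KA), with a median of 0.00 (GC-centred 0.00). The member past 0.32 was Ltbr, the lymphotoxin β receptor that acts upstream of NIK, at 83.3, 94.7 and 105 FPKM in β-Gal, NIK and NIK(KA). Of 13 interferon-response genes past the filter 9 lay below 0, with a median of -0.08 (GC-centred -0.07). Irf1, an interferon regulatory factor, was at 14.7 FPKM with β-Gal, 153 with NIK and 10.2 with NIK(KA), 1.44-fold below β-Gal in NIK(KA) (1.20 to 1.74). NIK(KA) and NIK thus lay on opposite sides of the control for Irf1. Cd82, a tetraspanin, followed the order of the MHC genes, at 8.03, 452 and 13.1 FPKM, and was 1.63-fold above β-Gal in NIK(KA) (1.31 to 2.03).

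Heat shock chaperones of the cytosol had a median above 0, with 2 members past 0.32. Of 17 genes past the filter 4 lay below 0, the median was 0.14 (GC-centred 0.15), and the counting interval lay above 1 in 11 and below 1 in 0. Medians were 0.04 for NIK minus β-Gal and -0.07 for NIK minus NIK(KA). Hsph1, a nucleotide exchange factor of Hsp70, was at 122 FPKM with β-Gal, 151 with NIK and 155 with NIK(KA), 1.27-fold above β-Gal in NIK(KA) (1.22 to 1.32). Dnajb1, an Hsp40 cochaperone, was at 29.6, 34.3 and 37.7, also 1.27-fold higher (1.19 to 1.36). Those were the members past 0.32. Hsp90aa1, the inducible cytosolic Hsp90, was at 1117, 1030 and 1332 FPKM, and Hspa8, the constitutive Hsp70, at 736, 828 and 838. Hsp90aa1 was thus above the control in NIK(KA) alone, and Hspa8 was lowest in the control.

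Genes of the α cell itself gave a mixed picture. Of 17 α-cell identity genes past the filter 11 lay below 0, with a median of -0.09 (GC-centred -0.12) and 3 past 0.32 lower. Gcg was at 12093 FPKM with β-Gal, 6955 with NIK and 10197 with NIK(KA), 1.19-fold lower in NIK(KA) (1.18 to 1.19). Peg10, an imprinted gene of retroviral origin, was at 68.6, 46.0 and 50.8, 1.35-fold lower (1.30 to 1.40). Sphkap, an anchor of protein kinase A, was at 94.8, 43.8 and 73.9, and Slc38a5, the glutamine transporter of proliferating α cells, at 430, 83.5 and 378. In all of these NIK(KA) lay between the control and NIK. Irx2, an α-cell homeobox gene, was at 300, 299 and 313 FPKM.

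Islet transcription factors went both ways, with 2 of 23 higher and 2 lower past 0.32 and a median of 0.03 (GC-centred -0.02). Isl1, a LIM homeobox factor of all islet endocrine cells, was at 311, 188 and 245 FPKM in β-Gal, NIK and NIK(KA), 1.27-fold lower in NIK(KA) (1.23 to 1.31). The ETS factor Etv1 was at 378, 198 and 301. Sox4, an SRY-box factor, was at 10.4, 24.7 and 14.8. In each of these genes NIK(KA) lay between the control and NIK.

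Among prohormone genes, the processing enzyme Pcsk2 was at 296, 213 and 278 FPKM, and 2 of 10 list members were past 0.32, both higher. Pcsk1n, whose product proSAAS inhibits the convertase Pcsk1, was at 191, 170 and 257 FPKM, 1.34-fold above β-Gal in NIK(KA) (1.30 to 1.39). Furin, a convertase of the trans-Golgi, was at 23.1, 17.2 and 30.7, 1.33-fold higher (1.23 to 1.44). Both were lower in NIK than in the control. Of 19 granin and granule genes 1 was past 0.32 in each direction. Vgf, a granin, was at 224, 740 and 350 FPKM, 1.56-fold higher (1.52 to 1.60), and Nucb2, the nesfatin precursor, at 12.8, 12.5 and 9.41, 1.36-fold lower (1.12 to 1.66). Stx1a, the plasma membrane SNARE of granule release, was 1.33-fold higher (1.20 to 1.48).

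Ribosomal protein genes had a median slightly above 0. Of 78 cytosolic ones past the filter 18 lay below 0, with a median of 0.07 (GC-centred 0.03), and 0 were past 0.32. The counting interval lay above 1 in 41 and below 1 in 8. Rps2, of the small subunit, was the highest, at 921, 1097 and 1139 FPKM in β-Gal, NIK and NIK(KA), and pseudogene copies could share its reads. The 77 mitochondrial ribosomal proteins had a median of 0.04 (GC-centred 0.03). Mrps24 and Mrps12, 2 of the 77, were past 0.32 higher, beside 3.74% of all genes. After GC centring they were at 0.25 and 0.22, under the limit. Splicing factors, 101 genes, had a median of 0.00 (GC-centred 0.03), and 36 proteasome subunits one of 0.05 (GC-centred 0.01).

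Whether on a list or not, the coding genes with the largest differences were mostly of low level. After Smoc2, the lowest with at least 100 reads over both libraries was Napsa, an aspartic protease. It was at 9.49 FPKM with β-Gal, 3.98 with NIK and 5.47 with NIK(KA). Ubb, a polyubiquitin gene, was at 645, 708 and 402 FPKM, 1.60-fold below β-Gal in NIK(KA) (1.56 to 1.65). It was low in NIK(KA) alone. Because polyubiquitin genes and their pseudogenes are near-identical in the repeats, its reads are uncertain. Neil3, a DNA glycosylase of replicating cells, was at 206, 75.8 and 136, 1.51-fold lower (1.44 to 1.59). Stom, the membrane protein stomatin, was at 40.3, 14.0 and 26.7, and Ier3, an immediate early survival gene, at 11.8, 22.4 and 7.33. Neil3 and Stom lay between the control and NIK, while Ier3 was lower in NIK(KA) and higher in NIK.

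The highest coding genes with at least 100 reads over both libraries were Tmem150a, Cuedc1 and Foxo6. Tmem150a, a membrane protein gene, was at 7.89 FPKM with β-Gal, 12.1 with NIK and 13.9 with NIK(KA), 1.76-fold higher in NIK(KA) (1.42 to 2.20). Foxo6, a forkhead factor, was at 5.36, 8.23 and 9.48, and Ino80b, a subunit of the INO80 chromatin remodeller, at 21.1, 30.3 and 35.1. NIK was also above the control in each of these. Spr, sepiapterin reductase of tetrahydrobiopterin synthesis, had 399 reads with β-Gal and 574 with NIK(KA), 1.61-fold higher (1.41 to 1.83). Dlgap3, a postsynaptic scaffold gene, was at 8.71, 16.6 and 14.1. For Dlgap3 NIK was the highest library.

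Among genes that are not protein-coding, 431 in all, the median was -0.07, with 36 higher and 72 lower past 0.32. Over all genes 3.74% were higher and 2.32% lower. The 96 long intergenic RNAs had a median of -0.13, with 3 higher and 17 lower. They had a median of 470 reads over β-Gal and NIK(KA) together, against 2002 for coding genes. GC-centred medians are not given for gene types. Neat1, the RNA scaffold of paraspeckles, had 9034 reads with β-Gal, 4287 with NIK and 4984 with NIK(KA). It was at 58.7, 33.4 and 36.2 FPKM, 1.62-fold below β-Gal in NIK(KA) (1.57 to 1.68). Rian, an imprinted host of small RNAs, was at 11.6, 5.40 and 6.84 FPKM. Both were highest in the control. Malat1, the abundant nuclear speckle RNA, was at 746, 942 and 842, lowest in the control. Gm26917, a long intergenic RNA of 70.7% GC, had 3330, 4243 and 5408 reads, 1.82-fold above β-Gal in NIK(KA) (1.74 to 1.90). The 34 small nucleolar RNAs (median -0.29) and 20 microRNAs (median 0.37) had few reads in β-Gal and NIK(KA) together, with medians of 28.5 and 21 per gene, so single genes are not named.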

How the data were processed

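The submitters' processing notes name the build GRCm38 and the tools TopHat2 and HTSeq 0.6.1. Not given in the sources used here are what each tool did, the annotation, the strand setting and the FPKM program, so reads of overlapping antisense genes cannot be told apart. The deposited values are FPKM per gene, 1 column per library, and 0 columns were left out. Symbols, gene types and coordinates came from GENCODE M21 (GRCm38), which held 52489 of the 52948 IDs; 312 others were not Ensembl IDs, of which 21 passed the filter. Promoters came from RefSeq.

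Each value is a whole number of reads times a constant of its gene and library, which gave the library totals and, within 0.001 of a read, whole reads for 26583 of 26584 detected genes. Recovery and the fold rule were tested on simulated data. Reads were used for counting intervals (exact conditional binomial, 95%) and not for a count model, since each group had 1 library. Molecular identifiers were not used, so reads are not independent molecules.

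Differences are of log2(FPKM + 1) over genes whose mean FPKM was at least 5. The members and the 47 gene lists were chosen with earlier results of these data known. Named are the 15 protein-coding and up to 5 other genes that differed most each way and at least 100 reads over both libraries, up to 4 members of each list past a log2 difference of 0.32 or otherwise up to 2 of the highest level, the 10 highest genes, those next to the filter, and a fixed set. Other genes named (such as Xbp1, Selenos, Syvn1, Cdk1, Mki67, Kif23, Rrm1, Bnip3, Vegfa, Egln1, Hsp90aa1, Hspa8, Irx2 and Malat1) were chosen after their values were seen. Alternatives changed the pseudocount, filter, scaling, gene types and fold, and GC content or gene length was centred. Python 3.11.15 was used with pandas 2.3.3, numpy 2.4.6, scipy 1.17.1 and matplotlib 3.10.9.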

Additional observations from a re-analysis of the deposited data

How the results depend on the processing

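No paired analysis was possible because each group held 1 library. For the same reason no library could be left out, and intervals cover counting error only. At 1.5-fold, where the main counts were 36 higher and 38 lower, there were 62 higher with a pseudocount of 0.1, and 8 and 14 with a pseudocount of 5. A mean FPKM of at least 1 gave 154 and 186, no filter 467 and 439, and a mean FPKM of at least 20 gave 12 and 5. Protein-coding genes alone gave 22 and 10, and a 2-fold threshold 4 and 6. With a counting interval that excludes 1, 23 were lower, and with centring by GC content 19 were higher. At a log2 difference of 0.32, with main counts of 366 and 227, a pseudocount of 5 gave 174 and 120, a mean FPKM of at least 1 gave 777 and 655, no filter 1758 and 1400, and a mean FPKM of at least 20 gave 158 and 78, while centring by GC content gave 169 higher. Low filters take in genes of few reads, and the other causes were not tested. Under the 3 scalings both counts stayed within 1.5 times the main ones. Of 484 list medians under alternatives, 474 moved by less than 0.1 and 10 by more. A change of sign occurred in 48, of which 43 belong to 16 lists whose median was under 0.1 in size, such as α-cell identity (-0.09), islet transcription factors (0.03) and granins (0.01), so no direction is read from those. The other 5 were other islet markers, -0.13, with a mean FPKM of at least 1 (0.0597) or no filter (0.0224), liver markers, -0.12, under the same settings (0.20 and 0.42), and potassium, calcium and sodium channels, 0.11, centred by GC content (-0.0127). Over these alternatives the medians ran from -0.31 to -0.24 for HIF targets, from -0.28 to -0.21 for ER chaperones, from -0.26 to -0.20 for mitosis, from 0.13 to 0.20 for MHC class I, from 0.10 to 0.16 for heat shock and from 0.02 to 0.20 for NF-κB.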

Other observations

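Further gene groups held values in both directions. Of 17 targets of p53 past the filter 2 were higher and 2 lower past 0.32, with a median of 0.04 (GC-centred 0.04). Bbc3, the apoptosis gene Puma, was at 24.9 FPKM with β-Gal, 63.2 with NIK and 35.7 with NIK(KA), while Gadd45a, a growth arrest gene, was at 255, 80.7 and 195 and the kinase gene Plk2 at 62.7, 65.7 and 44.9. Of 25 immediate early genes and CREB targets 14 lay below 0, with a median of -0.05 (GC-centred -0.08). Jun, the AP-1 subunit, was at 7.93, 7.25 and 10.6 FPKM. Of 18 clock genes 10 lay below 0, with a median of -0.04 (GC-centred -0.02).

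Ion channel genes, 20 of 126 past the filter, had a median of 0.11 that was -0.01 after GC centring. Hcn2, a pacemaker channel, was at 57.3 FPKM with β-Gal, 52.2 with NIK and 74.0 with NIK(KA), 1.29-fold above β-Gal in NIK(KA) (1.23 to 1.35). Kcnc4, a Kv3 potassium channel, was at 5.97, 1.41 and 8.17. Among 7 receptors that tune secretion, Grin1, the common subunit of NMDA receptors, was at 28.9, 21.5 and 37.8, 1.31-fold higher (1.22 to 1.40). In these genes NIK was the lowest library and NIK(KA) the highest. Tfeb, the regulator of lysosome genes, showed the same order at 24.9, 16.4 and 35.1 FPKM, with a median of 0.01 (GC-centred -0.01) over the 45 lysosome and autophagy genes.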
